A study of Mus musculus with 8 samples.

Results

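The lungs of TJ-41-fed mice given elastase and LPS were compared with those of TJ-41-fed mice given PBS, using 4 of the 8 RNA sequencing libraries of the series: 2 libraries labelled elastase+LPS_TJ41 and 2 labelled PBS_TJ41. The libraries were taken by their titles, and the comparison was singled out with earlier results known, because its replicates lay close together. It also leaves out a library of PPE and LPS on the control diet that was held to be outlying in earlier work on these data. The 2 libraries of that group lay far from each other, and which of them is outlying was not tested here. All mice were wild type and, per the methods, male C57BL/6. TJ-41 (hochuekkito) is a Japanese herbal medicine, written TJ4 in the treatment field of the labels and TJ41 in the titles, and all 4 libraries came from mice fed a diet with 2% TJ-41 from 8 weeks of age. In the PPE and LPS group, porcine pancreatic elastase (PPE) was instilled into the trachea at 10 weeks and lipopolysaccharide (LPS), a component of the bacterial outer membrane, was given 3 times from 12 weeks, once daily in one place of the study and every 3 days in another. The PBS group received phosphate-buffered saline in place of both. Mice were examined at 14 weeks (acute phase) or 17 weeks (chronic phase), but the age and the time of day at which the RNA was collected were not given in the sources used here. The other 4 libraries came from the same 2 treatments on the control diet, and they enter only where they are named.

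PPE digests elastic fibres and leaves enlarged airspaces, which is why the combination with LPS serves as a mouse model of chronic obstructive pulmonary disease (COPD), although it lacks the smoke exposure of the human disease. The lung answers such injury with recruited neutrophils and macrophages, and later with lymphoid aggregates in which B cells and antibody-secreting plasma cells are found. Lung tissue also keeps a strong circadian clock, a loop in which ARNTL and CLOCK or NPAS2 activate genes for their own repressors, the PER, CRY, NR1D and BHLHE proteins. Whole lung was sequenced, so that for every gene a change in the number of cells of a type and a change in the RNA per cell cannot be told apart.

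Total counts lay between 18882255 and 19502636 in the 4 libraries, and 3 counts corresponded to 0.153 to 0.162 CPM (counts scaled to the size of the library). The SD of the log2 difference between replicates was 0.394 in PBS and 0.433 in PPE and LPS on TJ-41, against 0.469 and 0.798 in the same treatments on the control diet. Defining markers of lung tissue were abundant in all 4 libraries: surfactant protein C (Sftpc) measured 10704 and 9504 CPM in PBS and 14759 and 15505 CPM in PPE and LPS. Labels do not say whether the 2 libraries of a group came from separate mice, and the p-values therefore measure only the spread between these libraries. Heat shock genes set PBS replicate 2 apart, as given with those genes.

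A gene was called when edgeR's quasi-likelihood test gave an adjusted p under 0.05 (Benjamini-Hochberg over all genes tested) and the change was over 2-fold. Of 19809 genes tested, 248 (1.25%) were called, of which 168 (0.848%) were higher and 80 (0.404%) were lower after PPE and LPS. The 2 libraries of each group lay on separate sides in all 248, and also in 57.2% of all genes tested. At an unadjusted p under 0.05 there were 4875 genes (24.6%), and the median log2 fold change of all genes was −0.0019. Genes called higher comprised 53 immunoglobulin gene segments, 100 protein-coding genes, 10 pseudogenes and 5 other non-coding genes. Genes called lower comprised 60 protein-coding genes, 15 non-coding genes, 4 pseudogenes and 1 immunoglobulin segment. Leaving out each library in turn gave 153 to 478 called genes, with 153 without PBS replicate 2, 431 without PBS replicate 1 and 478 without PPE and LPS replicate 2, and 116 of the 248 (84 higher and 32 lower) were called in all 4 of these fits.

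**Figure D1:**
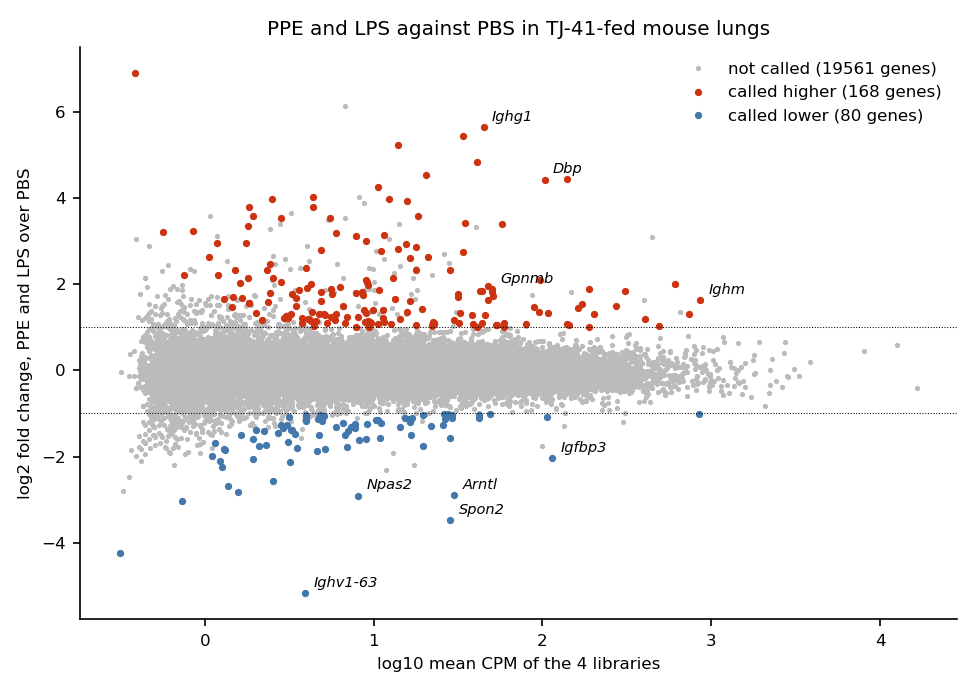
Log2 fold change of PPE and LPS over PBS on the TJ-41 diet (vertical axis) against log10 of the mean CPM of the 4 libraries (horizontal axis) for 19809 genes, with dotted lines at a 2-fold change. The 168 genes called higher include Ighg1, Dbp and Gpnmb, and the 80 called lower include Arntl, Npas2, Spon2 and Igfbp3.

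Clock genes changed in both directions: the activators Arntl and Npas2 and the output repressor Nfil3 fell, and 6 of 10 repressors and 3 of 10 output genes rose after PPE and LPS. The time of day at which the RNA was collected was not given for either group, and its part in these differences was not tested. Among 6 activator genes tested, 2 were called lower. Arntl (Bmal1, chr7:113207465-113314126, GRCm38), which encodes the core activator, measured 54.7 and 50.9 CPM in PBS and 7.67 and 6.44 CPM in PPE and LPS. Both treated libraries lay far below both controls, a log2 fold change of −2.90 ± 0.14 (SE; adjusted p = 4.53e-05). Npas2, which can stand in for CLOCK as the partner of ARNTL, went from 17.9 and 10.8 CPM to 2.09 and 1.74 CPM (−2.90 ± 0.29; adjusted p = 0.00215). Clock itself measured 164 and 197 CPM in PBS and 94.1 and 88.8 CPM in PPE and LPS, a log2 difference of −0.98 ± 0.12 that passed the adjusted p (0.00503) but stayed just inside the fold threshold. Rora, a nuclear receptor that activates Arntl, gave overlapping libraries, and Arntl2 had a log2 difference of 0.40 that was not called.

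Of 10 clock repressor genes tested, 6 were called higher and none lower, and all 10 log2 differences were positive (median 1.44). The transcription factor gene Bhlhe41 (Dec2) measured 9.63 and 9.30 CPM in PBS and 48.0 and 46.8 CPM in PPE and LPS, a log2 fold change of 2.32 ± 0.12. Per3 had 33.3 and 39.8 CPM in PBS against 159 and 153 CPM, and Per2 had 16.8 and 27.6 CPM against 75.5 and 80.8 CPM. These 3 repressors rose by 3.53-fold to 5.01-fold without overlap. Nr1d1 and Nr1d2, which encode the REV-ERB receptors that repress Arntl, had log2 fold changes of 1.89 ± 0.11 and 1.55 ± 0.17, and Bhlhe40 (Dec1) one of 1.33 ± 0.11. Adjusted p-values of the 6 lay between 5.42e-05 and 0.00313. Cry2 (0.63 ± 0.10) and Ciart (0.82 ± 0.17) passed the adjusted p without reaching 2-fold, whereas Cry1 measured 16.2 and 16.8 CPM in PBS and 17.4 and 17.5 CPM in PPE and LPS. Per1 was not called, with 21.5 and 84.0 CPM in the PBS libraries and 98.2 and 116 CPM in the treated ones.

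The clock output factors showed the smallest adjusted p of the whole comparison. Dbp (chr7:45705088-45710203), a PAR bZIP activator driven directly by ARNTL and CLOCK, measured 8.76 and 9.51 CPM in PBS and 193 and 200 CPM in PPE and LPS, which is 21.5-fold higher (log2 4.43 ± 0.12; adjusted p = 7.08e-07). Its relatives Hlf (18.6 and 20.2 against 76.1 and 74.3 CPM) and Tef (127 and 143 against 476 and 490 CPM) rose by 1.95 and 1.84 on the log2 scale. Nfil3, which encodes the repressor that competes with these PAR bZIP factors for D-box sequences, fell by 1.56 on the log2 scale, from 14.96 and 17.57 CPM to 5.43 and 5.57 CPM. Activators and repressor of the same sequence thus moved in opposite directions. Of the other output genes, Wee1 (0.84) and Usp2 (0.59) had smaller positive differences, and Nampt (−0.08), Cdkn1a (−0.08) and Tsc22d3 (−0.09) had overlapping libraries.

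Promoter sequences of clock genes were searched on both strands for the E-box CACGTG bound by ARNTL dimers, the D-box TTATGTAA bound by PAR bZIP factors and NFIL3, and the core TAGGTCA of the ROR element bound by REV-ERB and ROR receptors. Windows of 300 bases (250 before and 50 after the start) came from RefSeq, build GRCm38.p6, and 23 of the 27 clock genes had one. Of these, 5 held the E-box (Bhlhe41, Ciart, Cry1, Per1 and Tef), 1 held the D-box (Per3) and 2 held the ROR core (Arntl and Nfil3). Over all 27025 genes with a window the shares were 8.09%, 1.11% and 2.97%. The 130 called genes with a window held them in 14, 2 and 5 cases. Stretches with these motifs in capitals are shown for 3 genes that rose and 2 that fell, read 5′ to 3′ along the gene. They lie at chr6:145865559-145865640 (minus strand, Bhlhe41), chr15:81802534-81802563 (plus, Tef), chr4:151044796-151044895 (minus, Per3), chr7:113207530-113207559 (plus, Arntl) and chr13:52981040-52981069 (minus, Nfil3).
Bhlhe41: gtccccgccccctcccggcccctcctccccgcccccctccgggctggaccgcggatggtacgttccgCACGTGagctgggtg
Tef: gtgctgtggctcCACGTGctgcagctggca
Per3: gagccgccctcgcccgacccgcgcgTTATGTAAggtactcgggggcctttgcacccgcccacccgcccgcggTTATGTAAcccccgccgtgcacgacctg
Arntl: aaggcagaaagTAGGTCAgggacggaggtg
Nfil3: tagcgcggcgctcggaacTGACCTActaac
The E-box began 153 bases before the start of Bhlhe41 and 127 bases before that of Tef, and the D-boxes 205 and 158 bases before that of Per3. A further window of Tef, from another start, held an E-box 138 bases before that start. In Arntl the core lay after the start, from base 31 with the start as base 1, and another window of Arntl held none of the motifs. In Nfil3 the core is on the opposite strand, so that its reverse complement is printed. A match describes these letters only and is neither a bound site nor a cause.

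**Figure D2:**
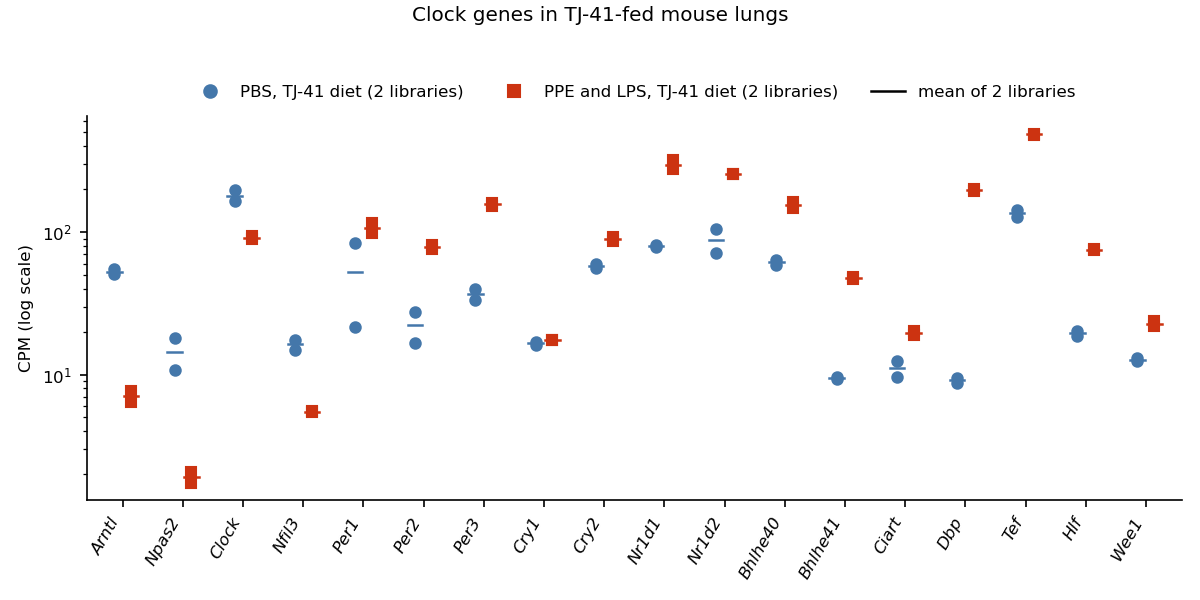
CPM (log axis) of 18 clock genes in each PBS library (circles) and each PPE and LPS library (squares) on the TJ-41 diet, with short lines at the mean of 2 libraries. Arntl, Npas2, Clock and Nfil3 sit lower after PPE and LPS, Dbp, Tef, Hlf, Per2, Per3, Nr1d1, Nr1d2, Bhlhe40 and Bhlhe41 sit higher, and Cry1 is nearly level.

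A pair of secreted proteins outside the clock fell as clearly. Spon2 (spondin 2, chr5:33198184-33218455), an extracellular matrix protein that binds microbial products, measured 49.8 and 54.8 CPM in PBS and 5.43 and 3.94 CPM in PPE and LPS, an 11.2-fold decrease (log2 −3.48 ± 0.17; adjusted p = 4.53e-05). Its relative Spon1 had overlapping libraries (292 and 304 against 299.98 and 273 CPM). Igfbp3 (chr11:7206086-7213923), a carrier of insulin-like growth factors, measured 189 and 178 CPM in PBS against 37.4 and 51.8 CPM, a log2 fold change of −2.04 ± 0.15 (adjusted p = 0.000380). It was the only called gene among 11 tested members of the IGF axis. The receptor gene Igf1r had a log2 difference of −0.41 that was not called.

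Immunoglobulin genes were prominent among the largest rises. Of 11 constant region genes tested, 6 were called higher, and 10 of the log2 differences were positive (median 1.70). Ighg1, the constant region of IgG1, measured 1.33 and 2.16 CPM in PBS and 116 and 59.9 CPM in PPE and LPS, a log2 fold change of 5.65 ± 0.37 (adjusted p = 0.000157). Ighg3 went from 8.81 and 11.3 CPM to 123 and 88.0 CPM (3.39 ± 0.19), and Ighg2c from 14.6 and 10.1 CPM to 444 and 89.9 CPM (4.44 ± 0.65). Every treated library exceeded every control for these 3 genes, but the treated libraries differed among themselves several-fold in Ighg2c. Ighm, the constant region of IgM, rose from 482 and 355 CPM to 1350 and 1245 CPM (1.63 ± 0.15), and the light chain genes Igkc (2.01) and Iglc2 (1.70) were called as well. The call of Igkc was lost without PPE and LPS replicate 1, where its log2 difference was 0.88, and without PBS replicate 2 (1.82).

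The IgA and IgG2b genes were carried by 1 treated library and were not called. Ighg2b measured 56.5 and 131 CPM in PBS and 1450 and 148 CPM in PPE and LPS, and Igha measured 372 and 359 CPM in PBS and 1546 and 318 CPM in PPE and LPS. Replicate 1 was high in both genes and replicate 2 lay close to the controls, and without replicate 1 the log2 difference of Igha was −0.20. Ighd, which marks resting B cells, was lower in both treated libraries (132 and 108 against 79.8 and 75.4 CPM; −0.63 ± 0.12), short of the fold threshold. IgG transcripts together summed to 81.2 and 154 CPM in PBS and to 2134 and 386 CPM in PPE and LPS. Among all heavy chain constant counts, Ighg1 made up 0.125% and 0.221% in PBS and 2.27% and 2.96% in PPE and LPS.

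**Figure D3:**
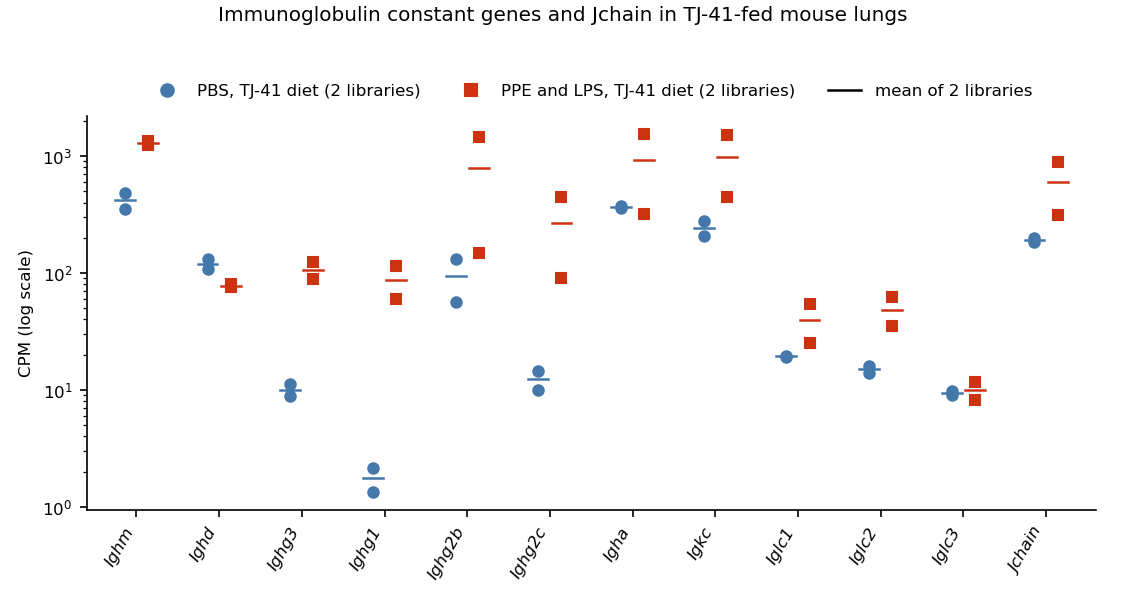
CPM (log axis) of immunoglobulin constant genes and Jchain in each PBS library (circles) and each PPE and LPS library (squares) on the TJ-41 diet, with short lines at the mean of 2 libraries. Ighm, Ighg1 and Ighg3 separate the groups, whereas the treated libraries of Ighg2b (1450 and 148 CPM) and Igha (1546 and 318 CPM) spread widely.

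Variable segments were called mostly in the higher direction. Of 74 Ighv genes tested, 25 were called higher and 1 lower, of 75 Igkv genes 21 were called higher, and of 3 Iglv genes 1 was called higher, and no Igkv or Iglv gene was called lower. Reads of near-identical variable genes can be split by the counting, so that single segments are uncertain. With the constant genes, immunoglobulin transcripts summed to 2121 and 1957 CPM in PBS and to 10737 and 3795 CPM in PPE and LPS. Igkv3-12 (1.84 and 2.00 against 36.6 and 22.5 CPM; log2 3.94 ± 0.27) and Igkv14-126 (1.33 and 2.05 against 44.1 and 34.7 CPM; 4.54 ± 0.23) had close replicates. Ighv5-4, in contrast, had 117 and 14.9 CPM in the treated libraries against 1.69 and 1.30 CPM in the controls. The segment called lower, Ighv1-63, rested on 1 control library, with 14.1 and 1.19 CPM in PBS and 0.313 and 0.102 CPM in PPE and LPS, and its call was lost without that library. The calls of Ighv5-4 and Igkv12-89 were lost without PBS replicate 2, and those of Ighv1-47 and Ighv14-4 without PPE and LPS replicate 1 and without 1 of the PBS libraries.

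B cell identity genes went the other way. None of 14 tested B cell genes had a positive log2 difference (median −0.46), 2 were called lower, and 8 had a lower level at an unadjusted p under 0.05, where 11.9% of all genes did. Ms4a1 (CD20) measured 56.5 and 74.4 CPM in PBS and 32.0 and 33.2 CPM in PPE and LPS, and Cr2 (complement receptor CD21) measured 23.2 and 30.0 CPM in PBS and 13.6 and 12.2 CPM in PPE and LPS. Both changes were about 2-fold. Both calls were lost without PBS replicate 2 (−0.79 and −0.85), and also without PPE and LPS replicate 1 for Ms4a1 (−0.98) and replicate 2 for Cr2 (−0.97). Pax5 and Bank1 passed the adjusted p with log2 differences of −0.81 and −0.82.

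Among 16 plasma cell genes only Fkbp11, a chaperone of the secretory pathway, was called (2.82 and 2.65 against 5.90 and 7.72 CPM; 1.31 ± 0.23), and its call was lost without PBS replicate 2 (1.27). Jchain, which links IgM and IgA into polymers, measured 201 and 185 CPM in PBS and 895 and 314 CPM in PPE and LPS. Its log2 difference of 1.64 ± 0.38 narrowly missed the threshold (adjusted p = 0.0503). Xbp1, Prdm1 and Irf4, transcription factors of antibody-secreting cells picked after their values were seen, had overlapping libraries, and the list median was 0.14. Cxcl13, the chemokine that draws B cells into follicles, was not higher (8.40 and 10.1 against 6.47 and 5.11 CPM), whereas Cxcl12, which retains plasma cells, was called higher (329 and 319 against 674 and 640 CPM; 1.02 ± 0.10). Without PPE and LPS replicate 1 the difference of Cxcl12 was 0.98, inside the fold threshold.

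Macrophage genes rose selectively. All 15 tested genes of lipid-laden, injury-associated macrophages had a positive log2 difference (median 0.60), 5 were called higher, and 13 were higher at an unadjusted p under 0.05, where 12.7% of all genes were. Gpnmb, a lysosomal glycoprotein, measured 21.6 and 21.6 CPM in PBS and 66.5 and 92.4 CPM in PPE and LPS (1.88 ± 0.16; adjusted p = 0.000828). Trem2, a lipid-sensing receptor, went from 5.07 and 2.76 CPM to 14.4 and 12.2 CPM (1.76 ± 0.27). The lysosomal proteases Ctsd (258 and 234 against 518 and 615 CPM) and Ctsk (31.3 and 21.7 against 55.9 and 74.6 CPM) were called as well, as was the pan-macrophage gene Cd68 (1.11), whose call was lost without PBS replicate 2 (0.76). Mmp12, the macrophage elastase, had a log2 difference of 0.78 ± 0.22 and was not called.

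Alveolar macrophage markers did not move together. Chil3 (Ym1), a secreted chitinase-like protein, rose from 476 and 383 CPM to 962 and 1152 CPM (1.30 ± 0.14; adjusted p = 0.00330). Marco (1.93) and Fabp4 (1.05) were called higher, but both calls were lost without PBS replicate 2 and without PPE and LPS replicate 2. In contrast, the defining marker Siglecf, also picked after its values were seen, measured 16.0 and 12.2 CPM in PBS and 7.72 and 9.25 CPM in PPE and LPS (−0.73 ± 0.20, not called). Over the 15 genes the median was 0.21. Cd163, the haemoglobin scavenger receptor, was the only called gene among 15 monocyte and interstitial macrophage genes, and it fell (11.4 and 10.6 against 5.01 and 4.19 CPM; −1.25 ± 0.19). Hmox1, the haem-degrading enzyme of the NRF2 antioxidant list, rose (1.28 ± 0.17, and 0.97 without PPE and LPS replicate 2), whereas Nfe2l2, which encodes NRF2, had overlapping libraries.

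Neutrophil genes were not uniformly higher. Of 16 tested, 2 were called. Lcn2, an iron-chelating granule protein that epithelium also makes, measured 140 and 92.4 CPM in PBS and 319 and 255 CPM in PPE and LPS, and Cd177 had 8.20 and 6.38 CPM against 13.6 and 18.1 CPM. The call of Cd177 was lost without PBS replicate 2 (0.95) and without PPE and LPS replicate 2 (0.89). The abundant calprotectin genes gave overlapping libraries: S100a8 measured 57.7 and 39.6 CPM in PBS and 31.1 and 83.8 CPM in PPE and LPS, and S100a9 measured 88.4 and 46.8 CPM in PBS and 48.3 and 144 CPM in PPE and LPS. Of the 22 genes on the list, 6 were below the filter on low counts. The list median of 0.16 became −0.17 without PPE and LPS replicate 2.

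No cytokine gene of 13 tested was called, with 1 at an unadjusted p under 0.05. Il6 measured 0.615 and 1.19 CPM in PBS and 0.522 and 0.614 CPM in PPE and LPS (−0.65 ± 0.48), and Tnf differed by −0.23 ± 0.27. Both were expressed at a few CPM or less, which limits what could be detected. Of 21 chemokines, Ccl6, a macrophage chemokine, rose from 154 and 131 CPM to 351 and 450 CPM (1.49 ± 0.14), and the neutrophil attractant Cxcl5 fell at a low level (2.77 and 1.41 against 0.626 and 0.256 CPM), a call lost without PBS replicate 1. Of 20 genes of LPS sensing and NF-kB feedback none was called. Lbp, which presents LPS to its receptor, had a log2 difference of 0.70 ± 0.10 that passed the adjusted p (0.0105) but not the fold threshold. None of 18 interferon response genes and none of 11 NADPH oxidase genes was called.

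All 12 tested alveolar type II cell genes had positive log2 differences (median 0.47), as 49.8% of all genes did, and none was called. An unadjusted p under 0.05 was reached by 9 of them, against 12.7% of all genes in that direction. The surfactant protein gene Sftpb measured 2265 and 1934 CPM in PBS and 3274 and 3406 CPM in PPE and LPS (0.67 ± 0.12), and Sftpc (0.58) and Napsa, a protease that processes surfactant proteins (0.60), also passed the adjusted p. The same list had a median of 0.05 in the mice fed the control diet, a difference that was not tested. Medians of other lists also differed between the diets, with 0.25 on TJ-41 and 0.94 on the control diet for the airway club and goblet list. Alveolar type I genes had a median of −0.25, with log2 differences of −0.52 for Cav1, −0.35 for Hopx and 0.36 for Ager, none of them called. In the airway list, the secreted defence proteins Reg3g (10.7 and 5.46 against 29.2 and 20.3 CPM), Scgb3a1 (64.8 and 30.1 against 142 and 122 CPM) and Tff2 (4.66 and 3.95 against 8.92 and 9.51 CPM) were called higher. The call of Tff2 was lost without PBS replicate 2 (0.98). The club cell gene Scgb3a2 was lower (533 and 545 against 331 and 319 CPM; −0.73 ± 0.10) within the fold threshold, and Scgb1a1 differed by −0.41 ± 0.13.

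Endothelial genes had a median of −0.10, and 2 of 16 were called lower. Ednrb, the endothelin receptor of alveolar capillaries, measured 137 and 152 CPM in PBS and 63.7 and 73.8 CPM in PPE and LPS (−1.07 ± 0.11). Apln, the ligand apelin of capillary cells, went from 54.8 and 60.4 CPM to 30.6 and 23.3 CPM (−1.10 ± 0.14). Leaving out PBS replicate 2 or PPE and LPS replicate 1 brought Ednrb to −0.998 and −0.97, and leaving out PPE and LPS replicate 2 brought Apln to −0.92. Kdr, the VEGF receptor, differed by −0.57 ± 0.10 (adjusted p = 0.0234). Among 14 leukocyte adhesion genes none was called, although Vcam1 (−0.79) passed the adjusted p as a lower gene and Itgb2 (0.84) as a higher one.

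In the matrix, the elastic fibre list held 2 called genes of 16. Ltbp2 (89.7 and 88.1 against 203 and 176 CPM; 1.09 ± 0.11) and Mfap5 (36.1 and 33.3 against 76.1 and 68.4 CPM; 1.06 ± 0.11), both of which bind microfibrils, rose just over 2-fold, and both came to 0.98 without PPE and LPS replicate 1, a loss of the call that Mfap5 also showed without PBS replicate 2. Fbn1, the main microfibril protein, was lower within the fold threshold (−0.58 ± 0.11). Eln, which encodes elastin and was looked up after the values were seen, measured 192 and 176 CPM in PBS and 141 and 123 CPM in PPE and LPS, a log2 difference of −0.48 ± 0.11 that was not called (adjusted p = 0.0507). None of 16 collagen genes was called. Among 20 proteases and inhibitors, Slpi, the secretory inhibitor of neutrophil elastase, was called higher (17.6 and 11.4 against 32.3 and 29.9 CPM) and Adamts4 lower (2.61 and 3.19 against 1.30 and 0.920 CPM), and both calls were lost without PBS replicate 2 (0.82 and −1.23), that of Adamts4 also without PPE and LPS replicate 2. Mmp2 (0.72 ± 0.11) and Ctss (0.77 ± 0.12) passed the adjusted p below 2-fold. Of 19 complement genes Cfd (factor D) was called higher (1.43 ± 0.21), and 10 were higher at an unadjusted p under 0.05, where 12.7% of all genes were.

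The study asked about AMPK, mTOR and autophagy, and none of 24 such genes was called. Mtor (73.5 and 67.8 against 68.9 and 72.2 CPM) and Prkaa2, an AMPK catalytic subunit (45.7 and 51.8 against 46.6 and 46.8 CPM), had overlapping libraries. Rps6kb1 (−0.30 ± 0.12), Prkaa1 (−0.16 ± 0.10) and Map1lc3b (0.23 ± 0.10) were also not called, and Sesn2, which restrains mTOR under stress, had the largest difference of the list (0.76 ± 0.15; adjusted p = 0.0364). These values concern mRNA and not the activity of the kinases.

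**Figure D4:**
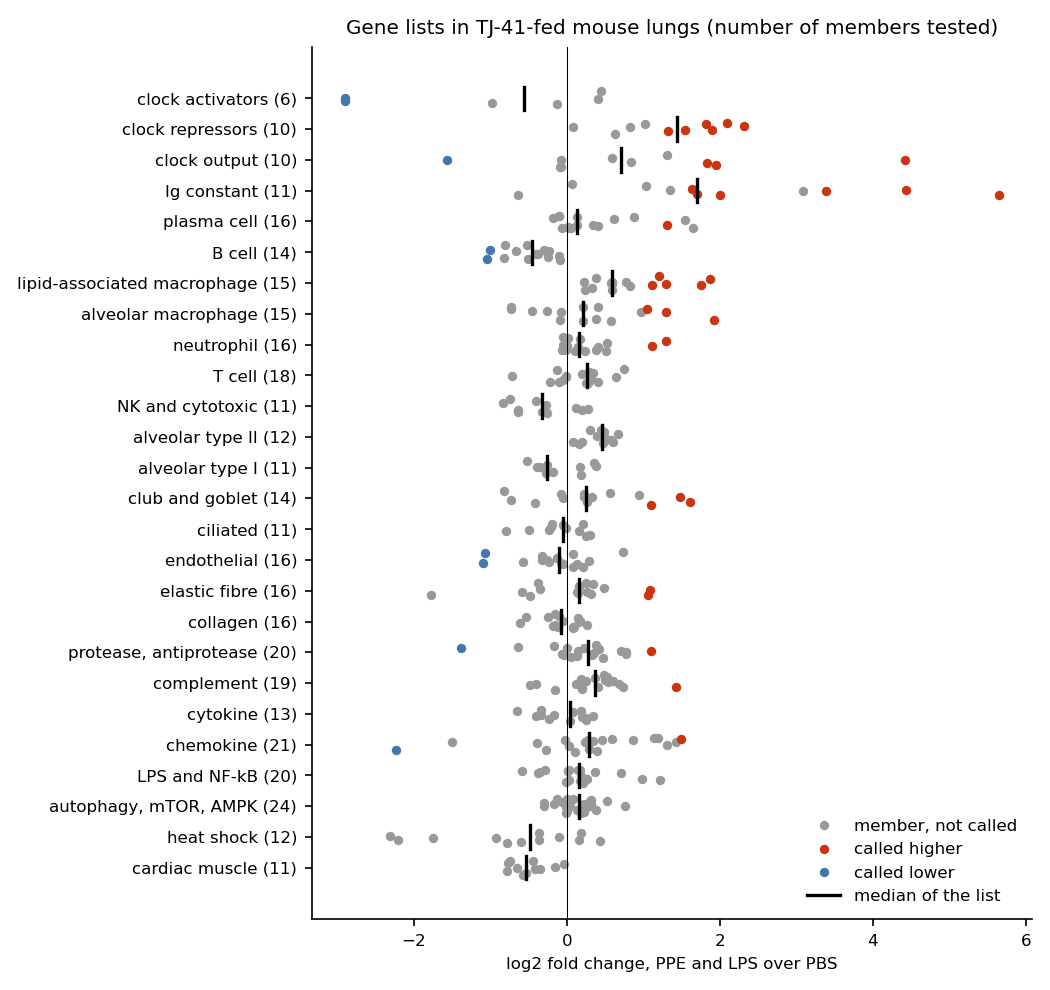
Log2 fold change of PPE and LPS over PBS on the TJ-41 diet (horizontal axis) for the tested members of 26 gene lists, whose number stands in parentheses, with a bar at each median. Clock repressor and immunoglobulin constant genes lie furthest right (medians 1.44 and 1.70), every lipid-associated macrophage and alveolar type II gene lies right of 0, and every B cell and cardiac gene lies left of it.

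Genes of cells that a lung sample can also hold, and of sample handling, were read beside these results. Cardiac muscle genes, which reach lung samples through pulmonary veins, had negative log2 differences in all 11 tested members (median −0.54), and none was called. An unadjusted p under 0.05 was reached by 5 of them, against 11.9% of all genes in that direction. Summed levels were 422 to 635 CPM in PBS and 312 to 378 CPM in PPE and LPS. On the control diet the median of this list was 0.46. Skeletal muscle and red cell lists had medians of −0.27 and −0.07. The adipocyte list had a median of 0.33, and 2 of its 11 tested members were called higher. These were Cfd and Fabp4, named above with the complement and alveolar macrophage genes. An unadjusted p under 0.05 was reached by 5 adipocyte genes in the higher direction and 1 in the lower, against 12.7% and 11.9% of all genes. Heat shock genes were high in PBS replicate 2: Hspa1a measured 2.46 and 36.9 CPM in PBS and 3.65 and 4.24 CPM in PPE and LPS, and Hsph1 measured 65.7 and 240 CPM in PBS and 38.8 and 51.7 CPM in PPE and LPS. The median of that list was −0.48 and became 0.07 without PBS replicate 2, and Per1 and Tsc22d3 were high in the same library. Their part in the other results was not tested. The clock genes Dbp, Arntl, Npas2, Bhlhe41, Per2, Per3, Nr1d1, Nr1d2, Hlf, Tef and Nfil3 were called in each of the 4 fits without 1 library.

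Large changes outside these lists included several low genes. Angptl7, a secreted glycoprotein, rose from 0.563 and 0.595 CPM to 5.99956 and 10.3 CPM (3.80 ± 0.35). Awat1, a wax ester synthase, had no count in either PBS library and 13 and 17 counts in PPE and LPS, at least 9.82-fold higher against 3 counts over the group. The call was lost without PBS replicate 2, and without PPE and LPS replicate 2 the gene was below the filter on low counts. Among the largest decreases, Ccnjl went from 3.84 and 4.87 CPM to 0.574 and 0.869 CPM (−2.58 ± 0.31), Avpr1a, a vasopressin receptor, from 3.48 and 2.76 CPM to 0.678 and 0.818 CPM (−2.05 ± 0.31), and Gal, the neuropeptide galanin, from 2.51 and 1.51 CPM to 0.261 and 0.665 CPM, a call lost without 3 of the 4 libraries in turn. The mast cell protease Cpa3 fell as well (11.5 and 10.8 against 5.27 and 3.58 CPM, −1.33 ± 0.22). It was the only called gene among 6 tested of the mast cell, basophil and eosinophil list. Of these 6, 4 log2 differences were negative and 2 positive, from −1.33 to 2.35 (median −0.34).

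Some called genes were picked out after their values had been seen and serve only as description. Lrg1, a leucine-rich glycoprotein of the acute phase, rose from 26.1 and 21.03 CPM to 78.2 and 79.1 CPM, and the neutrophil chemokine receptor Cxcr1 from 0.666 and 0.811 CPM to 3.76 and 4.50 CPM. The NK cell receptor gene Klra8 measured 8.96 and 11.6 CPM in PBS and 3.55 and 4.14 CPM in PPE and LPS, and Klra4 (−1.27), Klrc2 (−1.39) and Klri2 (−1.04) were also called. The calls of Klra4, Klrc2 and Klri2 were lost without PBS replicate 2 and without PPE and LPS replicate 1, that of Klra4 also without PBS replicate 1. Neighbouring members of these families share sequence and reads can be split between them. Of the 11 tested genes of the NK and cytotoxic list none was called, 8 log2 differences were negative and 3 positive, and the median was −0.33. Ptgs2, the inducible cyclooxygenase, fell from 24.7 and 35.7 CPM to 6.31 and 11.6 CPM, as did the neighbouring non-coding Ptgs2os2 (−1.88).

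When all 4 groups were fitted together, so that the spread of the control diet libraries entered, 16 of 20546 genes tested (0.0779%) were called for the same contrast, and all 16 were among the 248. Listed after their values were seen, they were the clock genes Dbp, Tef, Hlf, Per3, Nr1d1, Bhlhe41, Arntl and Npas2, the immunoglobulin genes Ighg1, Ighg3, Ighv1-9, Igkv3-12, Igkv14-100 and Igkv4-68, and Spon2 and Igfbp3. No called macrophage, B cell, epithelial or endothelial gene named above passed in that fit. The biological coefficient of variation was 0.124 with the TJ-41 groups alone and 0.208 with all groups. Without replicate 1 or replicate 2 of PPE and LPS on the control diet, the joint fit called 165 and 168 genes.

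On the control diet the same contrast, which shares no library with the one on TJ-41, called 25 genes (0.122%) in the joint fit. Of the 248 genes called on TJ-41, 234 (94.4%) differed in the same direction on the control diet, where 61.4% of all genes tested in both fits did, and 157 of them at an unadjusted p under 0.05. Arntl (−2.96), Spon2 (−3.48), Bhlhe41 (2.22), Per3 (1.97) and Hlf (2.11) had nearly the same log2 fold change on the control diet. Ighg1 had 0.471 and 0.779 CPM in PBS and 22.0 and 73.0 CPM in PPE and LPS there (6.23). Other genes had smaller values on the control diet: Dbp 3.36, Igfbp3 −1.12, Nr1d1 0.90, Gpnmb 0.87, Ednrb −0.17 and Cr2 0.01 on the log2 scale. Larger values on the control diet were found for Ighg3 (5.41 against 3.39 on TJ-41), Ighg2c (5.76 against 4.44) and Lcn2 (2.20 against 1.30). Of the 248 genes, 171 had the larger absolute change on TJ-41 and the rest on the control diet. For genes called higher the median was 1.65 on TJ-41 and 1.28 on the control diet, and for genes called lower −1.39 and −0.89. The genes were chosen by their call on TJ-41, so these medians are a description with no test.

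The difference between the diets itself was tested as an interaction in the fit of all 8 libraries. No gene passed (0 of 20546 by edgeR, smallest adjusted p = 0.643), and DESeq2 called 17. In edgeR 672 genes had an unadjusted p under 0.05, fewer than the 1027 that such a threshold gives by chance over all genes tested. Without replicate 1 or replicate 2 of PPE and LPS on the control diet, 14 and 9 genes were called. Igkv3-12 had one of the smallest interaction p-values: it rose by 3.94 on TJ-41 and differed by 0.98 on the control diet, an interaction of 2.95 on the log2 scale that failed the correction (adjusted p = 0.690). The interaction of Dbp was 1.07 ± 0.26 (SE), with an unadjusted p of 0.00245 in edgeR, and it failed as well (adjusted p = 0.999). That of Ighg3 ran the other way, at −2.02 ± 0.48 with an unadjusted p of 0.00220 in edgeR, and failed too (adjusted p = 0.999).

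**Figure D5:**
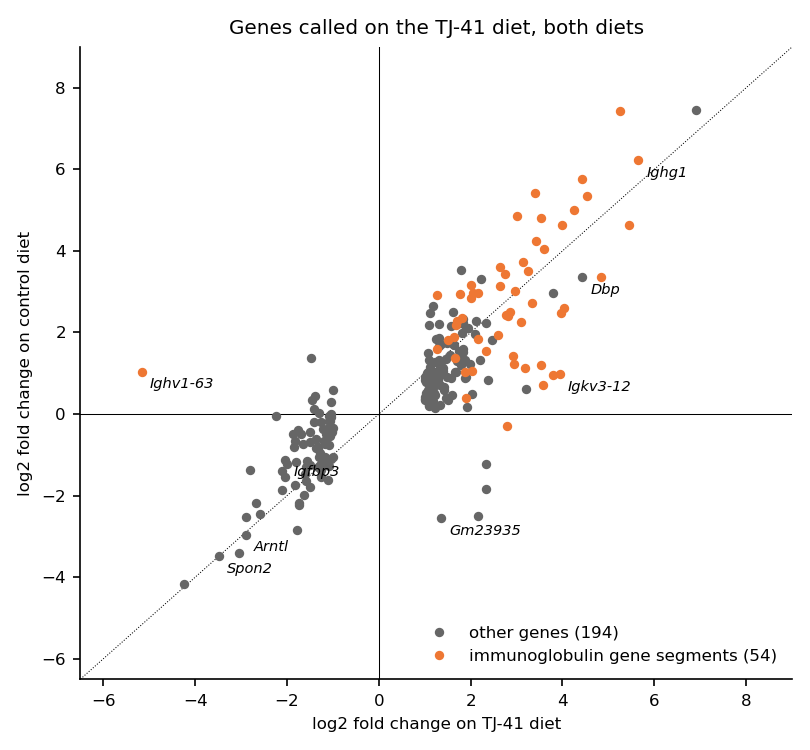
Log2 fold change of PPE and LPS over PBS on the control diet (vertical axis) against that on the TJ-41 diet (horizontal axis), both from the fit of all 8 libraries, for the 248 genes called on TJ-41, with the dotted line marking equal values. Of these, 234 lie on the same side of 0 on both diets, Arntl and Spon2 lie on the line, and Ighv1-63 and the microRNA gene Gm23935 lie on opposite sides.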

How the data were processed

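Raw read counts per gene were deposited by the authors as one file per library, with reads aligned to mm10. HISAT2 and edgeR are named in the submitters' processing notes and CLC Genomics Workbench in the methods; the counting program, its handling of strand and multi-mapped reads and the annotation release are not given in the sources used here, so that overlapping and antisense genes cannot be separated. Of 52636 gene IDs, 52489 matched GENCODE M21 (GRCm38), which gave names and coordinates.

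Genes were filtered with filterByExpr (at least 10 counts, 15 in total), scaled by TMM and tested with edgeR 4.0.16 (glmQLFit, glmQLFTest) in R 4.3.3 on the 4 TJ-41 libraries, which leave 2 residual degrees of freedom. The p-values were adjusted by Benjamini-Hochberg over all genes tested, and genes were called at an adjusted p under 0.05 and over 2-fold, the study's thresholds. The study names edgeR but no filter or model. SEs were the log2 fold change divided by the square root of the test's F. CPM used TMM factors of all 8 libraries. Values for the control diet, the interaction and the joint fit came from all 8 libraries. The code was tested on simulated data.

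Alternatives were DESeq2 1.42.0, edgeR's exact test, other scaling and filters, a replicate block and leaving out each library. Where 1 library was left, it was assumed to vary like the other group. Genes in the text were drawn from the 15 largest rises and 15 largest falls among called genes, clock, immunoglobulin constant and spondin genes and called list members. Further sources were, per list, the 4 members with the smallest p and the most abundant one, genes the study discusses and the 5 with the smallest interaction p. Not every gene of these groups is named. Others were said to be chosen after their values were seen or serve to state a list's range. The members and the 49 lists were chosen with earlier results of these data known, so that no list is independent evidence. No list was tested as a set. Counting intervals and limits at a count of 0 cover counting error only. Some members of the lists are counted but not reported here by name.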

Additional observations from a re-analysis of the deposited data

How the results depend on the processing

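The number of genes called on TJ-41 (248) was 230 with DESeq2, 253 with RLE size factors, 269 with library size alone, 166 with every gene that had at least 1 count and 232 with a mean of at least 1 CPM. It was 431 with edgeR's exact test, 716 without the fold threshold, 16 with all 4 groups and 165 when replicate 1 of PPE and LPS on the control diet was left out of that fit. Leaving out 1 TJ-41 library gave 153 to 478. The cause of these differences was not tested. The interaction (0) became 6 with every gene counted at least once and 17 with DESeq2, and ranged from 0 to 14 when 1 library was left out, with 14 and 9 without replicates 1 and 2 of PPE and LPS on the control diet. Of the 248 genes, 14 were called in each of the 15 settings and 100 in every setting other than the 2 with all 8 libraries. The same replicate numbers in both groups did not mark a shared mouse or day in the labels, and replicate differences of the groups were uncorrelated (r = 0.0472 across 20546 genes, which are not independent replicates). A replicate block moved the count to 524 with the TJ-41 groups alone, leaving 1 residual degree of freedom, to 18 with all groups, and left the interaction at 0; Tsc22d3 then changed sign, to 0.11 in both of the first fits.

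The log2 difference changed sign when 1 library was left out, over the range in parentheses, for Hspa1a (−3.21 to 0.68), Igha (−0.20 to 2.08), S100a9 (−0.49 to 1.09), Rora (−0.32 to 0.098), S100a8 (−0.65 to 0.79), Prkaa2 (−0.14 to 0.031), Spon1 (−0.13 to 0.0063), Nfe2l2 (−0.039 to 0.15), Cdkn1a (−0.35 to 0.27), Prdm1 (−0.26 to 0.10), Xbp1 (−0.0072 to 0.074), Irf4 (−0.29 to 0.34), Tsc22d3 (−0.68 to 0.97) and Mtor (−0.057 to 0.069). Mtor also became 0.011 with library size alone, and 0.0051 and 0.010 in the joint fit without either PPE and LPS library on the control diet. None of these genes was called in the fit of the 4 TJ-41 libraries. Of the 49 list medians, 16 changed sign without some library, among them the neutrophil, cytokine, T cell, collagen, monocyte and interferon lists.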
